A study of Mus musculus with 9 samples.

Results

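The mitosis genes are a named list of 44 mouse gene symbols whose products build the spindle, hold and move chromosomes or divide the cell. They were found by symbol in the deposited table, where they make up 44 of 54532 genes, and all 44 were among the 14004 genes with enough counts to be tested. Messenger RNA was sequenced from ST2 cells, a mouse stromal line that the labels describe as a wild-type (WT) mesenchymal stem cell from bone. The study asked how Wnt signalling and protein O-GlcNAcylation, the attachment of a single sugar by the enzyme OGT, act in bone-forming cells. There were 3 groups of 3 libraries, each collected at 72 h. The Veh group received vehicle and the rhWnt3a group received 50 ng/ml of recombinant human Wnt3a. The libraries titled rhWnt3aOSMI carry a treatment label that names only OSMI, an inhibitor of OGT, at 20 μM, so title and label differ. They are treated here, following the titles, as rhWnt3a with OSMI. The authors' account of the experiment describes this combination too, although their methods name OSMI without rhWnt3a. Axin2, a target of Wnt signalling, was far above vehicle in all of these libraries, as in the rhWnt3a libraries. By the titles no group received OSMI alone. Reads assigned to genes totalled 16417002, 16591815 and 17583945 in vehicle replicates 1 to 3. In rhWnt3a libraries the totals were 16811833, 17393439 and 17061946, and in the OSMI libraries 16135898, 17022987 and 16713202.

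Cells enter mitosis when cyclin B and CDK1 become active together, and kinases of the Aurora, Polo and NEK families then shape the spindle. Kinetochores, large protein assemblies on the centromeres, attach chromosomes to spindle microtubules, and the spindle checkpoint holds the anaphase-promoting complex back until every chromosome is attached. Most of these genes are transcribed late in the cell cycle and are low in resting cells, and stromal cells that mature into osteoblasts are known to slow their division as they do so.

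The stromal label was compared with marker genes. Of 10 stromal markers 8 were tested, and their summed level, in TMM-scaled CPM (counts divided by library size), was 27800, 29340 and 22630 with vehicle, 21050, 18210 and 20870 with rhWnt3a, and 10100, 9195 and 17550 with OSMI added. The collagen genes Col1a1 and Col1a2 were the most abundant of them in every library, while Thy1 and Lepr were at or near 0. Among 8 leukocyte markers 3 were tested, and the list summed to 13.4, 14.5 and 19.9 CPM with vehicle, 7.90, 11.4 and 7.23 with rhWnt3a, and 10.5, 8.599 and 3.26 with OSMI added. Cd14 or Lyz2 led that list in every library, Cd3e was at 0 throughout and Ptprc, the general leukocyte marker, did not exceed 0.127 CPM. The 5 endothelial markers summed to 2.44, 2.80 and 1.70 CPM with vehicle, 0.243, 0.284 and 0.478 with rhWnt3a, and 0.483, 0.745 and 0.524 with OSMI added. Emcn was the most abundant endothelial marker with vehicle, whereas Cdh5 and Kdr were at or near 0 in all libraries. The 6 epithelial markers summed to at most 0.244 CPM in any library, with Krt5, Krt14 and Krt18 at 0. Stromal, leukocyte and endothelial sums thus moved with the groups, and their part in the results on mitosis genes was not tested. In bulk RNA, fewer dividing cells and less of these transcripts per dividing cell cannot be told apart.

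One library in each group stood apart from the other two over 13776 tested genes outside the cell-cycle lists. These were vehicle replicate 3, rhWnt3a replicate 2 and OSMI replicate 3, with mean squared log2 differences to the rest of their group of 0.426, 0.394 and 0.436, against 0.117, 0.111 and 0.119 between the remaining pairs. Of the variance inside groups, 55.1% fell on 1 axis. Vehicle replicate 3, rhWnt3a replicate 2 and OSMI replicates 1 and 2 lay on one side of this axis, and the other 5 libraries lay on the opposite side. The labels name no batch, and the counts per group are therefore given below with and without the libraries that stood apart. The authors call the replicates biological, but neither they nor the labels say that these were separate cultures, so p-values measure the spread between these samples, which may be technical.

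The mitosis genes were expressed at a low level. Their mean deposited FPKM, a level per kilobase of gene, had a median of 0.677 over the list, against 5.35 over all tested genes. Counts for a member in a library ran from 1 to 676 with a median of 54, and 3 counts, taken as the lowest level told from 0, correspond to 0.169 to 0.191 CPM. Tpx2, Cdc20 and Top2a had the highest mean levels per length, at 3.06, 2.51 and 2.43 FPKM. Kif18a, Kif15 and Spc24 had the lowest, at 0.176, 0.219 and 0.242 FPKM. The members lie on 17 chromosomes, with 8 of them on chromosome 2.

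Added together, the 44 genes reached 300.5, 239.9 and 228 CPM with vehicle, 122, 120.4 and 133 with rhWnt3a, and 380.0, 363 and 196 once OSMI was added. Every rhWnt3a library was below every library of both other groups, and OSMI replicate 3 was below all vehicle libraries while OSMI replicates 1 and 2 were above them. The mean sum was 256 ± 38.8 CPM with vehicle (SD, n = 3), 125 ± 6.71 with rhWnt3a and 313 ± 102 with OSMI added. It was thus 2.05-fold lower with rhWnt3a than with vehicle and 2.5-fold higher with OSMI added than with rhWnt3a. Without the library apart in each group the mean sums were 270.2, 128 and 372 CPM. The OSMI libraries then left lay on the opposite side of the axis from those left in the other groups. The OSMI mean therefore differs from the others by side as well as by treatment. In part this holds with all libraries too, since 2 OSMI libraries lay on the side that held 1 library of each other group. The map of members by library shows how the single genes follow these sums: vehicle replicate 1 was the highest of its group for 32 of 44 genes, and OSMI replicate 3 was the lowest of its group for 42.

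**Figure D1:**
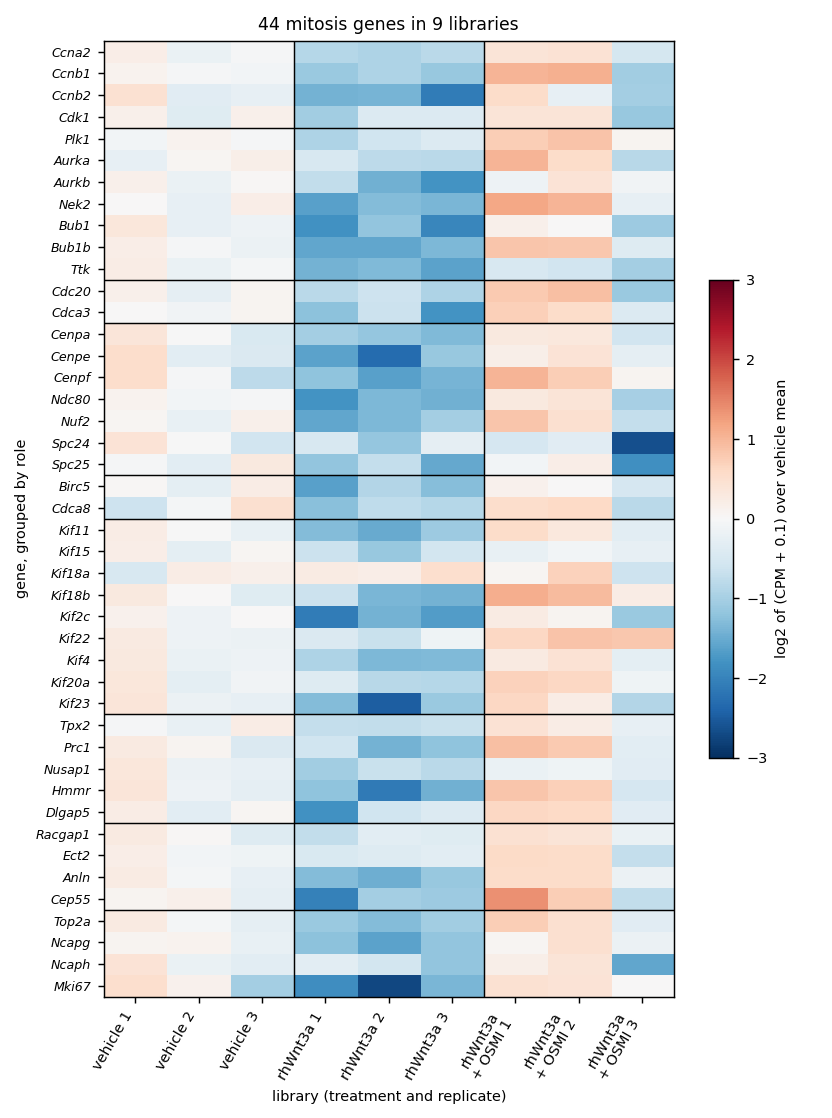
Level of each of the 44 mitosis genes (vertical axis, grouped by role) in the 9 libraries (horizontal axis), coloured by log2 of CPM plus 0.1 relative to the mean of the vehicle libraries. The rhWnt3a columns are blue for nearly all genes, OSMI replicates 1 and 2 are mostly red, and OSMI replicate 3 is mostly pale blue.

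**Figure D2:**
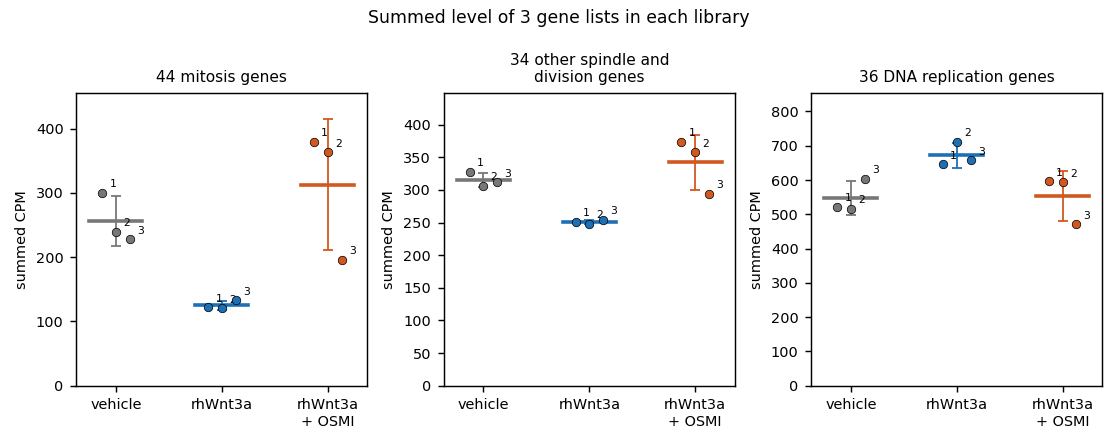
Summed CPM (vertical axis) of the mitosis genes, of 34 other spindle and division genes and of 36 DNA replication genes in each library, with points numbered by replicate, lines at the group means and bars of 1 SD. The rhWnt3a libraries are lowest for both division lists and highest for DNA replication.

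Each gene was compared between groups with the edgeR quasi-likelihood test on all 9 libraries, and was called when its p, adjusted by Benjamini-Hochberg, was under 0.05 and its log2 fold change was above 0.5 or below −0.5. With rhWnt3a against vehicle, 18 of 44 members were called lower, against 5.86% of all tested genes called lower. The groups did not overlap, with rhWnt3a lower, for 40 members, against 14.2% of all genes. The median log2 fold change of the members was −1.20, compared with 0.04 over all tested genes, and 43 of 44 were lower. Without the library apart in each group, 37 members were called lower, beside 11.4% of all genes. Calls in this comparison varied with single libraries: 4 members were called without vehicle replicate 1, 8 without vehicle replicate 2, 6 without rhWnt3a replicate 1, 11 without rhWnt3a replicate 2 and 6 without rhWnt3a replicate 3. Over all genes, calls in either direction went from 1230 to 761, 717, 716, 1110 and 724 in the same order of omissions. Leaving out OSMI replicate 3, which belongs to neither of these groups but alters the count filter and the shared spread, gave 28 members called lower, beside 6.86% of all genes. An exact permutation of 3 against 3 libraries cannot give a p under 0.1 for a single gene, so the calls rest on a spread shared across genes.

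When OSMI was added to rhWnt3a, 22 of 44 members were called higher than with rhWnt3a, against 1.69% of all tested genes called higher. OSMI libraries were all above rhWnt3a libraries for 34 members, against 16.7% of all genes. The members had a median log2 fold change of 1.42, compared with −0.01 over all genes, and 42 of 44 were higher. Without the library apart in each group 40 members were called higher, beside 3.99% of all genes, and without OSMI replicate 3 alone there were 35, beside 1.46%. The OSMI and rhWnt3a libraries left in the first of these fits lay on opposite sides of the axis, so the 40 compares sides as well as treatments. Fewer were called without other libraries: 14 without vehicle replicate 2, 11, 8 and 7 without rhWnt3a replicates 1, 2 and 3, and 8 and 7 without OSMI replicates 1 and 2. A fit on the 6 libraries of these groups called 13. Calls over all genes, in either direction, numbered 664 with all libraries, 370, 277, 280, 217, 240 and 203 with these omissions in the same order, and 345 with 6 libraries. This comparison and rhWnt3a against vehicle use the same rhWnt3a libraries, so their opposite signs are not independent of each other.

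Against vehicle, rhWnt3a with OSMI gave 1 member called higher, Kif22, beside 4.84% of all tested genes. None of the 44 was called lower by edgeR, beside 9.34% of all genes. At an unadjusted p under 0.05 there were 3 members higher and 1 lower, beside 3186 of 14004 genes in either direction. DESeq2 called 1 higher and 0 lower, beside 2362 genes in either direction. The libraries of the groups did not overlap for 1 member that was higher with OSMI, Kif22, beside 19.3% of all genes, and for 1 that was lower, Ttk, beside 19.5%. Members had a median log2 fold change of 0.24, compared with −0.01 over all genes, with 34 higher and 10 lower. Without the library apart in each group 14 members were called higher, beside 8.02% of all genes. The OSMI and vehicle libraries then left lay on opposite sides of the axis, so this count compares sides as well as treatments. With the side as a block 1 member was called higher and 1 lower, beside 4671 genes called in either direction. The side was found in these same libraries, so this block narrows the spread by construction. Leaving out OSMI replicate 3 alone gave 7 members, beside 3.73%, and no member was called by edgeR without vehicle replicate 2 or 3 or without OSMI replicate 1 or 2. All genes called in either direction were then 1237, 1852, 1308 and 1370, against 1986 with all libraries.

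OSMI replicate 3 held a different place from the rest of its group. OSMI replicates 1 and 2 lay above all vehicle libraries for 29 and 30 of the 44 genes, with median log2 ratios to the vehicle mean of 0.53 and 0.46. OSMI replicate 3 lay below all vehicle libraries for 31 genes and above them for 1, with a median log2 ratio of −0.45. Compared with the rhWnt3a libraries, OSMI replicates 1, 2 and 3 were above all of them for 42, 43 and 34 genes, and replicate 3 was below all of them for 8. These counts for single libraries have no share over all tested genes beside them, so they describe the members alone. Taken within each side of the axis on which libraries stood apart, the median log2 difference of OSMI from rhWnt3a was 1.51 on the side of OSMI replicates 1 and 2 (44 genes higher) and 0.66 on the side of OSMI replicate 3 (36 higher, 8 lower). OSMI from vehicle differed by 0.60 on the first of these sides and by −0.46 on the other. For rhWnt3a from vehicle the same medians were −0.99 and −1.17. Over all genes the medians on these sides were −0.01 and −0.05, −0.01 and −0.06, and 0.01 and 0.04, in the same order of comparisons. Most of these medians rest on 1 library in at least 1 group, since only rhWnt3a and vehicle on the side of OSMI replicate 3 had 2 libraries each, and they were not tested.

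**Figure D3:**
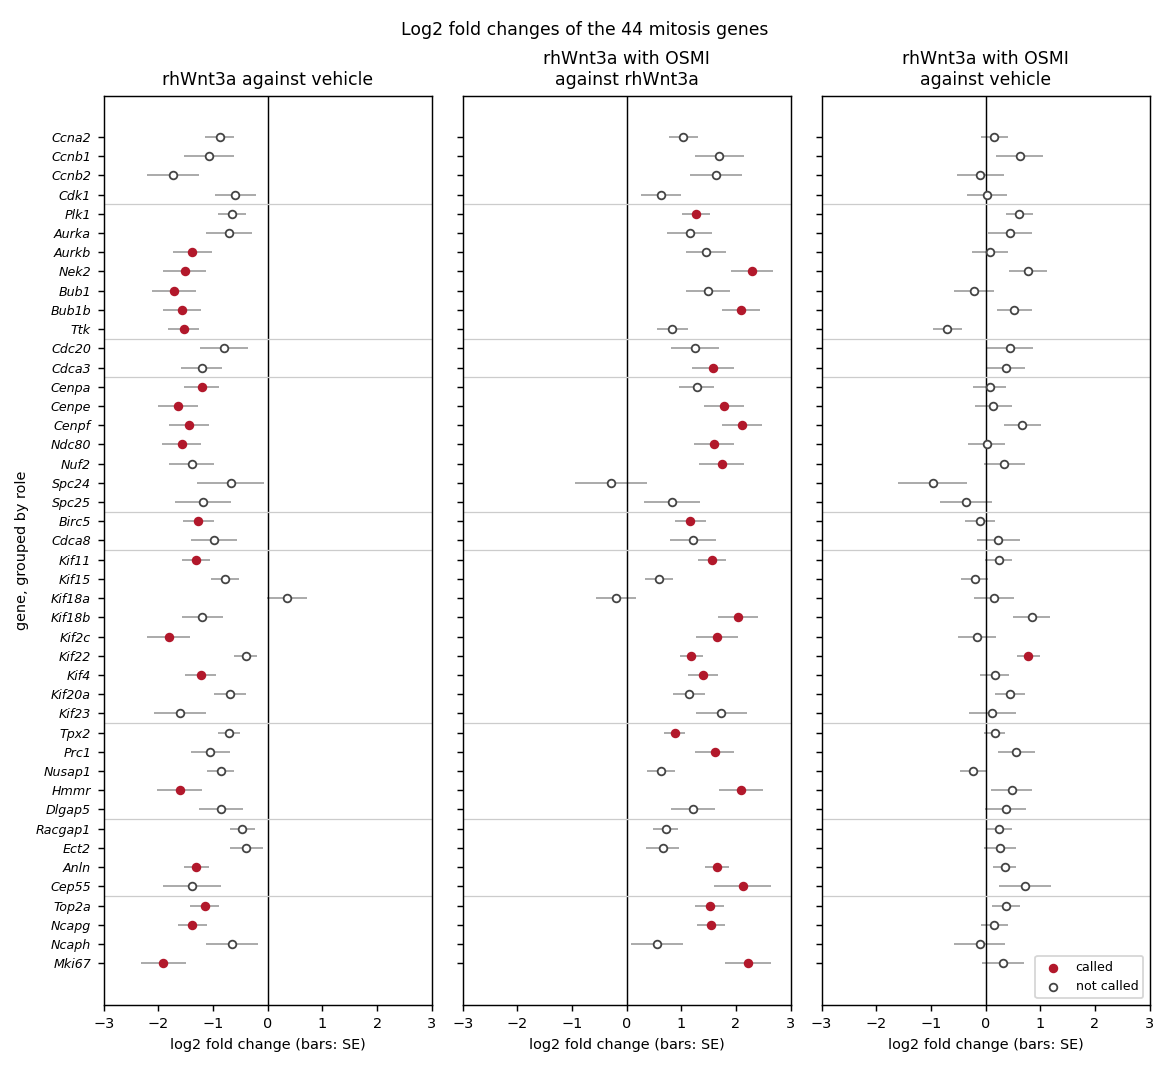
Log2 fold change of each mitosis gene (points, with bars of 1 SE) in the 3 comparisons, filled where the gene was called by edgeR, with genes on the vertical axis in the same order as their roles. Points lie left of 0 with rhWnt3a against vehicle except for Kif18a, right of 0 with OSMI against rhWnt3a except for Kif18a and Spc24, and around 0 with OSMI against vehicle.

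The promoters of the members were searched for letters that mark late cell-cycle genes. The members were listed as mitosis genes, so the shares describe that list, and a link to the treatments was not tested. RefSeq promoter windows on GRCm38.p6, reaching from 250 bases before to 50 after each annotated start, were found for 38 of the 44 genes (41 windows). No entry was found for Ccna2, Aurkb, Spc24, Kif20a, Tpx2 and Dlgap5. The core of the cell cycle genes homology region (CHR), taken as TTTGAA or TTCGAA on either strand, occurred in 33 of 41 member windows (80.5%), in 19.2% of all 32851 windows and in 14.1% of the 12551 windows of tested genes. CCAAT, the motif of NF-Y, or its complement ATTGG occurred in 30 member windows (73.2%) and in 37.4% of all windows. Both together were present in 65.9% of member windows against 7.52% of all, and 51.2% of member windows held CCAAT more than once against 11.7% of all. The E2F motif, searched only in the fixed form TTTGGCGC or its complement GCGCCAAA, occurred in 2 member windows, those of Kif18a and Kif15 (4.88%), and in 0.514% of all. Other forms of the E2F motif were not searched. Of 45 CHR core matches in members 34 (75.6%) began between 100 bases before the start and the window's end, as did 41.4% of matches over all windows. For CCAAT it was 49 of 66 (74.2%), and 53.8% over all windows. No binding was measured here, and a match describes the letters alone.

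**Figure D4:**
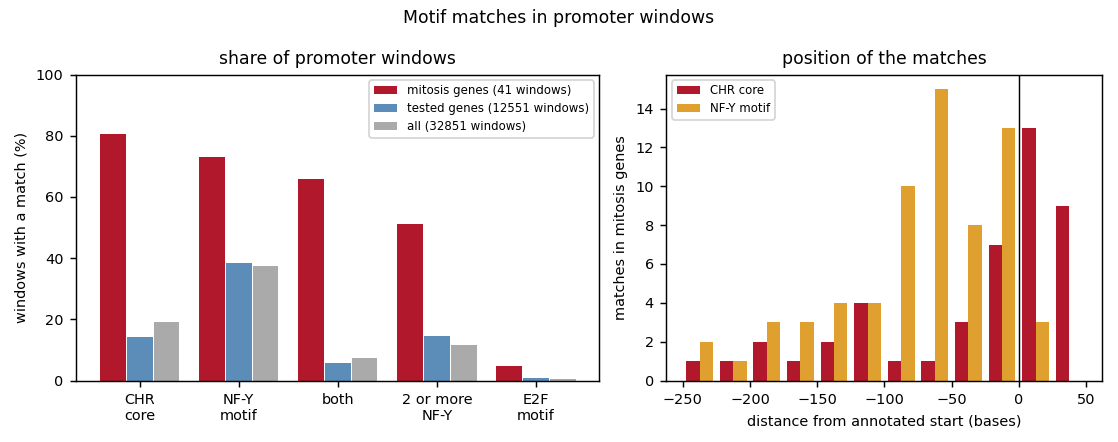
Left, share of RefSeq promoter windows (percent) with a match to the CHR core, the NF-Y motif, both, 2 or more NF-Y motifs or the fixed form of the E2F motif, for mitosis genes, tested genes and all windows. Right, number of CHR core and NF-Y matches in mitosis genes by distance in bases from the annotated start, most of them in the last 100 bases before it or just after it.

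Promoters are printed for Mki67 and Nek2, which had the largest called fold changes with rhWnt3a and with OSMI added, and for Cdk1 and Ccnb1, the kinase and a cyclin of mitotic entry. The windows run 5′ to 3′ along the gene on GRCm38.p6 and are credited to RefSeq: chr7:135716330-135716629 on the minus strand (Mki67), chr1:191821223-191821522 on the plus strand (Nek2), chr10:69352863-69353162 on the minus strand (Cdk1) and chr13:100786437-100786736 on the minus strand (Ccnb1). Capitals mark the CHR core, and CCAAT on either strand.
Mki67: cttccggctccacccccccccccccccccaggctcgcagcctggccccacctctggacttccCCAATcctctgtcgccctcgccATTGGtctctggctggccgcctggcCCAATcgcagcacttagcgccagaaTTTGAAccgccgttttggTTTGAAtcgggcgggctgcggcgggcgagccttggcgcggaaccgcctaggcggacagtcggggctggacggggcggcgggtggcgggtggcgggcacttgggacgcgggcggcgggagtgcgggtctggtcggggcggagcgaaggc
Nek2: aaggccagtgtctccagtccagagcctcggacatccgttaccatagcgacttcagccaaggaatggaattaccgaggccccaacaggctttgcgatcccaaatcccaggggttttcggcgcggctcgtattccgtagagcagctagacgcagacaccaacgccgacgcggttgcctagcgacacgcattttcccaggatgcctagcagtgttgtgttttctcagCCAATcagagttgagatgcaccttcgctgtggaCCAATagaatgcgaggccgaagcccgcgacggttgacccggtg
Cdk1: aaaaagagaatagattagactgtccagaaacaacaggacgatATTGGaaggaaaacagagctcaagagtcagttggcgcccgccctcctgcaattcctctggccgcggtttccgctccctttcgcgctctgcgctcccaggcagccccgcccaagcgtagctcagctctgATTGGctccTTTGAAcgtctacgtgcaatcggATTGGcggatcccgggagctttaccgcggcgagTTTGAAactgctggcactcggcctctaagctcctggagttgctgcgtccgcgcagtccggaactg
Ccnb1: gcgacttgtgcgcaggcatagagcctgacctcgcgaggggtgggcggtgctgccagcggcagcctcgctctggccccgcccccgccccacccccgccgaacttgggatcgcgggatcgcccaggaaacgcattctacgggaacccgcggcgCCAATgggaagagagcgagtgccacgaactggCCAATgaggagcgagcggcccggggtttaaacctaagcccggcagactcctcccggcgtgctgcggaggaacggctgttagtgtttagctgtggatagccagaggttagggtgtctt
Mki67 and Cdk1 hold 5 matches each, with both motifs, whereas Nek2 and Ccnb1 hold 2 matches each, all of CCAAT.

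Cyclins and their kinase come first in the order of events. Ccna2, Ccnb1 and Ccnb2 encode cyclins A2, B1 and B2, and Cdk1 encodes the kinase that they activate. Cdk1 measured 14.9, 10.4 and 14.7 CPM with vehicle, 6.44, 10.1 and 10.04 with rhWnt3a, and 17.4, 17.5 and 5.996 with OSMI added. Its rhWnt3a libraries were below the vehicle libraries by a narrow gap, and OSMI replicate 3 was the lowest of all 9. Ccnb1 stood at 7.50, 6.81 and 6.61 CPM with vehicle, 3.16, 3.63 and 3.11 with rhWnt3a, and 14.2, 14.6 and 3.32 with OSMI added. OSMI replicates 1 and 2 were above all vehicle libraries while replicate 3 lay among the rhWnt3a libraries. For Ccnb2 the CPM were 2.93, 1.66 and 1.75, then 0.729, 0.738 and 0.418, then 3.14, 1.78 and 0.990 in the same order of groups. All rhWnt3a libraries were below both other groups, which overlapped each other. Log2 fold changes of the 4 genes lay between −1.73 and −0.59 with rhWnt3a, and between 0.62 and 1.69 once OSMI was added. None of the 4 was called by edgeR in either comparison, where 5.86% of all genes were called lower and 1.69% higher, respectively. An unadjusted p under 0.05 was reached by 3 in each, beside 2155 and 2271 of 14004 genes in either direction. DESeq2 called 2 lower with rhWnt3a and 3 higher with OSMI added, beside 1515 and 1241 genes in either direction. Much of the Ccnb1 transcript (51.9%) is near-identical to Ccnb1-ps, Gm12856 or Gm8416, so reads may be shared with these copies and its values are uncertain.

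Of 7 kinases of mitosis, 5 were called lower with rhWnt3a and 3 higher with OSMI added, beside 5.86% and 1.69% of all tested genes. Nek2 encodes a kinase that helps separate the centrosomes. It measured 2.68, 2.23 and 3.05 CPM with vehicle, 0.790, 1.02 and 0.956 with rhWnt3a, and 6.04, 5.45 and 2.21 with OSMI added. All rhWnt3a libraries lay below the others, and OSMI replicate 3 was just under the vehicle range while OSMI replicates 1 and 2 were above it. Its log2 fold change was 2.30 (SE 0.38, adjusted p = 0.0110, edgeR quasi-likelihood test with Benjamini-Hochberg adjustment) with OSMI added to rhWnt3a, and without rhWnt3a replicate 3 the adjusted p was 0.0520. Bub1b encodes BUBR1, a checkpoint protein that restrains the anaphase-promoting complex. Its CPM were 3.72, 3.12 and 2.82 with vehicle, 1.03, 1.02 and 1.20 with rhWnt3a, and 5.80, 5.67 and 2.44 with OSMI added. Libraries of the rhWnt3a group were close together and below all others. The log2 fold change with OSMI added was 2.09 (SE 0.35, adjusted p = 0.0108, edgeR quasi-likelihood test with Benjamini-Hochberg adjustment), and the call was made without any 1 of the 9 libraries.

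Bub1, whose kinase marks centromeres for the checkpoint, had 3.60, 2.35 and 2.54 CPM with vehicle, 0.729, 1.19 and 0.657 with rhWnt3a, and 3.14, 2.87 and 1.28 with OSMI added. Vehicle libraries were all above rhWnt3a libraries. OSMI replicates 1 and 2 lay within the vehicle range, and OSMI replicate 3 lay between the groups. Its log2 fold change with rhWnt3a was −1.71 (SE 0.40, adjusted p = 0.0257, edgeR quasi-likelihood test with Benjamini-Hochberg adjustment). The adjusted p was 0.0978 and 0.0602 without vehicle replicates 1 and 2, and 0.115 and 0.113 without rhWnt3a replicates 1 and 3. Ttk encodes MPS1, the kinase that starts checkpoint signalling at kinetochores. It stood at 3.05, 2.23 and 2.48 CPM with vehicle, 0.911, 0.965 and 0.777 with rhWnt3a, and 1.81, 1.72 and 1.22 with OSMI added. Here the 3 groups did not overlap, with the OSMI libraries between the other groups. The log2 fold changes of Ttk were −1.54 with rhWnt3a (called), 0.83 with OSMI added and −0.71 with OSMI against vehicle (neither called). Among the remaining kinases, Aurkb (Aurora B) was called lower with rhWnt3a at −1.38 and Plk1 (Polo-like kinase) was called higher with OSMI added at 1.26, and Aurka (Aurora A) was called in neither comparison, at −0.71 and 1.15. The Aurkb call was made under 11 of 22 alternative settings and the Plk1 call under 16 of 23.

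Cdc20 and Cdca3 concern protein destruction: Cdc20 activates the anaphase-promoting complex, and Cdca3 encodes a trigger of mitotic entry. Cdc20 measured 5.43, 4.01 and 5.20 CPM with vehicle, 2.73, 3.12 and 2.51 with rhWnt3a, and 8.52, 9.17 and 2.21 with OSMI added. OSMI replicate 3 was the lowest of all libraries and the other two of its group were the highest. Its log2 fold changes of −0.81 with rhWnt3a and 1.25 with OSMI added were not called, while Cdca3 was called higher with OSMI added at 1.58. The Cdca3 call was made under 14 of 23 alternative settings.

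Kinetochore and centromere genes had 4 of 7 members called lower with rhWnt3a (all genes 5.86%) and 4 of 7 called higher with OSMI added (all genes 1.69%). Cenpe encodes the kinesin that carries chromosomes to the spindle's middle. It measured 12.1, 6.68 and 6.10 CPM with vehicle, 2.67, 1.59 and 3.71 with rhWnt3a, and 9.42, 11.1 and 6.87 with OSMI added. Vehicle replicate 1 was the highest library, and every rhWnt3a library was below all others. With rhWnt3a its log2 fold change was −1.64 (SE 0.36, adjusted p = 0.0191, edgeR quasi-likelihood test with Benjamini-Hochberg adjustment), with an adjusted p of 0.0697 without vehicle replicate 1 and 0.0739 without rhWnt3a replicate 1. Cenpf encodes a large protein of the outer kinetochore. Its CPM were 7.99, 5.35 and 3.16 with vehicle, 2.31, 1.70 and 2.03 with rhWnt3a, and 11.2, 9.23 and 5.82 with OSMI added. Vehicle libraries spread widely, yet none overlapped the rhWnt3a group, and the OSMI libraries were all above the rhWnt3a group. OSMI added to rhWnt3a gave a log2 fold change of 2.11 (SE 0.36, adjusted p = 0.0123, edgeR quasi-likelihood test with Benjamini-Hochberg adjustment), and the adjusted p was 0.0575 without rhWnt3a replicate 3.

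Ndc80, Nuf2, Spc24 and Spc25 encode the complex that grips microtubules at the kinetochore. Spc24 had 1.22, 0.891 and 0.565 CPM with vehicle, 0.608, 0.341 and 0.717 with rhWnt3a, and 0.604, 0.688 and 0.0582 with OSMI added. All groups overlapped, and OSMI replicate 3 held a single count. Spc25 had 1.89, 1.53 and 2.37 CPM with vehicle, 0.790, 1.14 and 0.598 with rhWnt3a, and 1.81, 2.24 and 0.466 with OSMI added. The rhWnt3a libraries were below the vehicle libraries, and OSMI replicate 3 was the lowest of all 9. Ndc80 was called in both comparisons, at −1.58 and 1.59, and Nuf2 was called only with OSMI added, at 1.73, after −1.39 with rhWnt3a. Under 23 alternative settings Ndc80 was called in 17 with rhWnt3a and 11 with OSMI added, and Nuf2 in 6 and 10. For Spc24 the log2 fold change with OSMI added was −0.29, and it ran from −0.72 to 0.22 under other settings, so its sign was not fixed. Cenpa, the histone variant of centromeres, was called lower with rhWnt3a at −1.21. Differences between these subunits were not tested.

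Birc5 and Cdca8 encode survivin and borealin, which hold Aurora B in the chromosomal passenger complex. Birc5 measured 4.27, 3.37 and 4.86 CPM with vehicle, 1.28, 2.21 and 1.67 with rhWnt3a, and 4.53, 4.18 and 2.91 with OSMI added. The rhWnt3a libraries lay below both other groups, whose values overlapped. Birc5 was called in both comparisons, at −1.27 and 1.16, and Cdca8 in neither, at −0.98 and 1.22. The Birc5 calls were made under 18 and 11 of 23 alternative settings.

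Kinesins, the motors that slide, cross-link or shorten microtubules, had 3 of 9 members called lower with rhWnt3a and 5 of 9 called higher with OSMI added, against 5.86% and 1.69% of all genes. Kif2c encodes MCAK, which takes microtubules apart at their ends. It measured 3.17, 2.61 and 2.94 CPM with vehicle, 0.608, 1.02 and 0.837 with rhWnt3a, and 3.44, 3.10 and 1.28 with OSMI added. Vehicle and rhWnt3a libraries were well separated, and OSMI replicate 3 lay between them. The log2 fold change of Kif2c with rhWnt3a was −1.81 (SE 0.39, adjusted p = 0.0170, edgeR quasi-likelihood test with Benjamini-Hochberg adjustment). Its adjusted p was 0.0576 without vehicle replicate 1 and 0.0849 and 0.0712 without rhWnt3a replicates 1 and 3.

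Kif22 encodes the chromosome-bound motor Kid, which pushes chromosome arms outward. Its CPM were 5.86, 4.33 and 4.24 with vehicle, 3.52, 3.01 and 4.36 with rhWnt3a, and 7.43, 8.83 and 8.44 with OSMI added. Unlike most members it was high in all 3 OSMI libraries, replicate 3 included, and its vehicle and rhWnt3a libraries overlapped. The log2 fold change against vehicle was 0.78 (SE 0.21, adjusted p = 0.0326, edgeR quasi-likelihood test with Benjamini-Hochberg adjustment). That call was not made without vehicle replicate 2 or 3 (adjusted p = 0.0942 and 0.0824, edgeR quasi-likelihood test with Benjamini-Hochberg adjustment). It was also not made without OSMI replicate 1, 2 or 3 (0.0529, 0.0882 and 0.0613). Against rhWnt3a, Kif22 was called higher with OSMI at 1.18.

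Kif18a encodes a motor that dampens chromosome movement at the spindle's middle, and it alone was higher with rhWnt3a than with vehicle. Its CPM were 1.10, 1.84 and 1.75 with vehicle, 1.88, 1.82 and 2.27 with rhWnt3a, and 1.63, 2.58 and 0.990 with OSMI added. All groups overlapped. The log2 fold changes of 0.35 with rhWnt3a and −0.20 with OSMI added were not called, and the second ran from −0.57 to 0.08 under other settings. Kif15, which can stand in for Kif11 in keeping spindle poles apart, had 3.48, 2.42 and 3.11 CPM with vehicle, 1.88, 1.31 and 2.03 with rhWnt3a, and 2.54, 2.81 and 2.5 with OSMI added. Its OSMI libraries lay within the vehicle range and above the rhWnt3a libraries. Kif15 was not called, at −0.79 and 0.59. Kif11, the main motor of spindle bipolarity, and the chromosome-arm motor Kif4 were called in both comparisons, at −1.32 and 1.56 and at −1.23 and 1.40. Kif18b was called only with OSMI added, at 2.04. Kif20a and Kif23, motors of the midzone between separating chromosomes, were called in neither, with log2 fold changes of −0.69 and −1.61 with rhWnt3a and of 1.14 and 1.73 with OSMI added.

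Microtubule proteins of the spindle had 1 of 5 members, Hmmr, called lower with rhWnt3a (5.86% of all genes) and 3 of 5 called higher with OSMI added (1.69%). Hmmr encodes a protein that focuses spindle poles. It measured 5.25, 3.63 and 3.33 CPM with vehicle, 1.70, 0.852 and 1.43 with rhWnt3a, and 7.37, 6.76 and 2.85 with OSMI added. The rhWnt3a libraries were the lowest, and OSMI replicate 3 lay between them and the vehicle group. Hmmr had a log2 fold change of −1.61 with rhWnt3a (SE 0.41, adjusted p = 0.0355, edgeR quasi-likelihood test with Benjamini-Hochberg adjustment). Its adjusted p was 0.128 and 0.0815 without vehicle replicates 1 and 2, and 0.0709, 0.0948 and 0.106 without rhWnt3a replicates 1, 2 and 3. Tpx2, which activates Aurora A and seeds microtubules, had 15.7, 13.8 and 18.5 CPM with vehicle, 9.66, 9.54 and 10.1 with rhWnt3a, and 21.7, 18.8 and 13.4 with OSMI added. Its rhWnt3a libraries lay close together below all others. Tpx2 was called higher with OSMI added at 0.88 and not called with rhWnt3a at −0.71. Under 23 alternative settings it was called in 12 with OSMI added and in 11 with rhWnt3a. Nusap1, which bundles microtubules near chromosomes, had 4.09, 2.86 and 2.71 CPM with vehicle, 1.52, 1.99 and 1.79 with rhWnt3a, and 2.78, 2.92 and 2.5 with OSMI added. The OSMI libraries were close to the lower vehicle libraries. Nusap1 was called in neither comparison, at −0.86 and 0.63. Prc1, the bundler of midzone microtubules, was called with OSMI added at 1.61, and Dlgap5, which stabilises kinetochore fibres, was not called, at −0.85 and 1.21.

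Cytokinesis genes had 1 of 4 members, Anln, called lower with rhWnt3a and 2 of 4 called higher with OSMI added, where 5.86% and 1.69% of all genes were called. Cep55 encodes a protein of the last bridge between daughter cells. It measured 2.44, 2.54 and 1.86 CPM with vehicle, 0.486, 1.08 and 1.02 with rhWnt3a, and 6.10, 3.90 and 1.34 with OSMI added. OSMI libraries spread more than those of the other groups, but all were above the rhWnt3a libraries. Its log2 fold change with OSMI added was 2.12 (SE 0.52, adjusted p = 0.0488, edgeR quasi-likelihood test with Benjamini-Hochberg adjustment). Cep55 was called without OSMI replicate 3 and not without any 1 of the other 8 libraries. The adjusted p was then 0.0720, 0.0825 and 0.0539 without vehicle replicates 1 to 3, 0.137, 0.104 and 0.126 without rhWnt3a replicates 1 to 3, and 0.140 and 0.113 without OSMI replicates 1 and 2. Anln, the scaffold anillin of the contractile ring, was called in both comparisons, at −1.30 and 1.65. Racgap1 and Ect2, which switch on the small GTPase RhoA at the cell's equator, were called in neither, at −0.47 and −0.40 with rhWnt3a and 0.71 and 0.66 with OSMI added.

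Genes of chromosome structure included the proliferation marker Mki67 (ENSMUSG00000031004, chr7:135689784-135716361), whose protein Ki-67 coats mitotic chromosomes. Mki67 measured 22.8, 17.56 and 7.91 CPM with vehicle, 4.38, 2.33 and 6.16 with rhWnt3a, and 22.3, 21.4 and 16.13 with OSMI added. Vehicle replicate 3 came close to the rhWnt3a libraries without overlapping them, and OSMI replicates 1 and 2 lay between the upper vehicle libraries. The log2 fold change was −1.91 with rhWnt3a (SE 0.42, adjusted p = 0.0177, edgeR quasi-likelihood test with Benjamini-Hochberg adjustment). With OSMI added to rhWnt3a it was 2.22 (SE 0.42, adjusted p = 0.0177, edgeR quasi-likelihood test with Benjamini-Hochberg adjustment). The first had an adjusted p of 0.0696 and 0.0628 without vehicle replicates 1 and 2 and 0.0690 without rhWnt3a replicate 1. For the second it was 0.0592 and 0.0503 without rhWnt3a replicates 1 and 2, and 0.0573 and 0.0610 without OSMI replicates 1 and 2.

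Top2a encodes the topoisomerase that untangles sister chromatids. It stood at 29.3, 23.6 and 20.3 CPM with vehicle, 11.3, 9.77 and 11.8 with rhWnt3a, and 40.8, 34.3 and 19.3 with OSMI added. The rhWnt3a libraries were all far below the others, and OSMI replicate 3 was just under the vehicle range. Top2a was called in both comparisons, at −1.15 and 1.52. Ncapg and Ncaph encode condensin subunits, and Ncapg was called in both comparisons, at −1.38 and 1.54. Ncaph had 3.96, 2.54 and 2.37 CPM with vehicle, 2.37, 1.99 and 1.25 with rhWnt3a, and 3.38, 3.90 and 0.931 with OSMI added. Vehicle replicate 3 and rhWnt3a replicate 1 were nearly equal, and OSMI replicate 3 was the lowest library. Ncaph was not called, at −0.66 and 0.55.

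**Figure D5:**
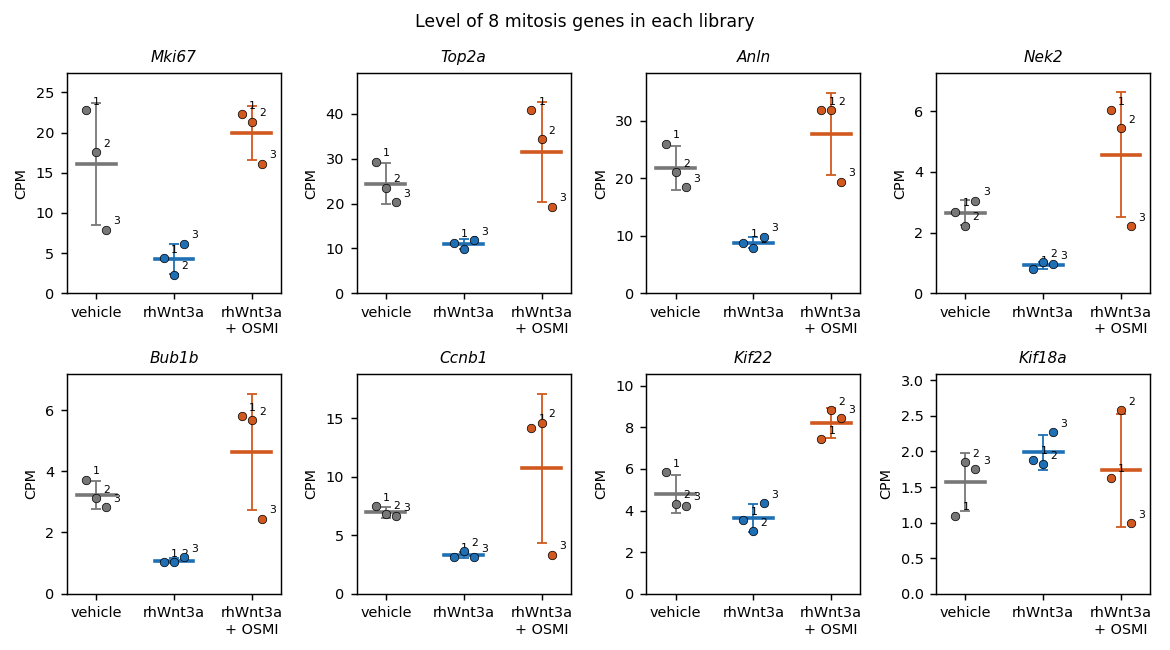
CPM (vertical axis) of 8 mitosis genes in the 9 libraries, with points numbered by replicate, lines at group means and bars of 1 SD. The rhWnt3a libraries are lowest for the first 6 genes apart from OSMI replicate 3 of Ccnb1, Kif22 is high in all OSMI libraries, and the groups of Kif18a overlap.

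Read overlap with other genes limits some values, since strandedness is not stated in the sources used here. Of the 44 members, 12 share near-identical sequence with another gene, 12 overlap a gene on the opposite strand, and 7 do both. In these 7 the overlapping gene is itself among the near-identical genes, so the overlap is counted under both headings. Top2a alone has only a same-strand overlap, with Gm23451, and 26 members have none of these. Shared stretches exceed 10% for Ccna2, Ccnb1, Kif4, Kif20a, Prc1, Racgap1 and Ncapg. Kif20a is overlapped over 29.3% of its exon bases by Cdc23.

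Other cell-cycle genes were followed through further lists. The 32 tested genes of the spindle and division outside the 44 had a median log2 fold change of −0.77 with rhWnt3a. Of them edgeR called 8 lower and 0 higher, beside 5.86% and 2.92% of all genes. At an unadjusted p under 0.05, 17 were lower and 1 was higher, beside 2155 of 14004 genes in either direction. DESeq2 called 12 lower and 0 higher, beside 1515 genes in either direction. Pbk and Pimreg had the largest changes, at −2.21 and −2.04. With OSMI added 8 were called higher, beside 1.69% of all genes, at a median of 1.03, led by Iqgap3 at 2.10 and Pimreg at 1.97. Their summed level was 328, 307 and 312 CPM with vehicle, 251, 248 and 254 with rhWnt3a, and 374, 358 and 294 with OSMI added. All rhWnt3a libraries were below all others, and OSMI replicate 3 was below the vehicle libraries. In OSMI against vehicle, Ccnf (1.20) was called higher and Cdc25b and Pkmyt1 (both −1.01) were called lower, beside 4.84% of all genes called higher and 9.34% called lower.

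Of 22 tested genes of cohesin, separase and condensin, Espl1, which encodes separase, was called lower with rhWnt3a at −1.49, and Espl1 and Sgo1, a guardian of centromeric cohesion, were called higher with OSMI added at 2.03 and 1.53. These 1 and 2 calls of 22 stand beside 5.86% of all genes called lower and 1.69% called higher, and the list had medians of −0.10 and 0.19. Among 32 tested kinetochore and checkpoint genes outside the 44, the scaffold Knl1 alone was called lower with rhWnt3a at −1.59, beside 5.86% of all genes. Knl1 at 1.90 and Incenp at 0.62 were called higher with OSMI added, beside 1.69% of all genes, and the medians were −0.27 and 0.10. Against vehicle, Incenp was called higher at 0.75 and Pmf1 lower at −1.02, beside 4.84% and 9.34% of all genes. Of 17 genes of the anaphase-promoting complex edgeR called 0 with rhWnt3a, beside 2.92% of all genes called higher and 5.86% called lower. With OSMI added it called 0 as well, beside 1.69% of all genes called higher and 3.05% called lower. An unadjusted p under 0.05 was reached by 0 and 3, beside 2155 and 2271 of 14004 genes in either direction. DESeq2 called 0 and 2, beside 1515 and 1241 genes in either direction. Anapc15 alone of the 17 was called lower against vehicle, at −0.81, beside 9.34% of all genes. Among 10 genes of centriole duplication edgeR and DESeq2 called 0 in any comparison, beside the shares of all genes given above. At an unadjusted p under 0.05 there were 0, 1 and 2, beside 2155, 2271 and 3186 of all genes in either direction.

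Transcription factors of cell-cycle genes, 23 of 25 tested, had a median log2 fold change of 0.07 with rhWnt3a and 0.10 with OSMI added. edgeR and DESeq2 called 0 of them with rhWnt3a, where edgeR called 2.92% of all genes higher and 5.86% lower. In that comparison DESeq2 called 1515 of all genes in either direction. An unadjusted p under 0.05 was reached by 3 of the list, beside 2155 of 14004 genes in either direction. Foxm1, an activator of late cell-cycle genes, measured 12.4, 15.5 and 10.2 CPM with vehicle, 8.81, 6.19 and 9.74 with rhWnt3a, and 13.7, 16.3 and 17.5 with OSMI added. The rhWnt3a libraries were below both other groups, and OSMI replicate 3 was the highest library. Foxm1 was called higher with OSMI added at 0.94 and was not called with rhWnt3a at −0.62. It was 1 of 23 called higher with OSMI added, beside 1.69% of all genes. Mybl2, which encodes the B-MYB activator, had log2 fold changes of −0.19 and 0.39 that were not called. Tfdp2 (0.85) and Nfya (0.56) were called higher and Nfyc (−0.68) lower in OSMI against vehicle, 2 and 1 of 23 genes beside 4.84% and 9.34% of all genes.

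The summed level of the DNA replication genes was 522, 516 and 604 CPM with vehicle, 646, 712 and 658 with rhWnt3a, and 597, 593 and 470.3 with OSMI added. The rhWnt3a libraries were above all others, and OSMI replicate 3 was the lowest library. Without the library apart in each group the means were 519, 652 and 595 CPM, with the OSMI libraries left on the opposite side of the axis from the others. The median log2 fold change of the 35 tested genes was 0.10 with rhWnt3a, near the 0.04 of all genes, with 23 higher and 12 lower, and it was −0.34 with OSMI added. With rhWnt3a 4 of 35 were called higher, beside 2.92% of all genes, namely Rfc3 (1.22), Dut (0.98) and, named after their values were seen, Mcm2 (0.84) and Mcm4 (0.54). With OSMI added 4 were called lower, beside 3.05% of all genes, namely Dut and Chaf1b (both −1.34), Mcm4 (−0.68) and Mcm2 (−0.62). Chaf1b (−1.29) and Lig1 (−0.76) were called lower in OSMI against vehicle, 2 of 35 beside 9.34% of all genes. Pcna, the sliding clamp of replication, was not called, at 0.19 and −0.19.

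Regulators of G1 phase, 13 of 16 tested, had Cdk6 called higher with rhWnt3a at 0.90 and Ccnd3 called lower with OSMI added at −0.54, beside 2.92% and 3.05% of all genes. Cdk6 was also called higher in OSMI against vehicle, at 0.99, beside 4.84% of all genes. Ccnd1, which encodes cyclin D1, had log2 fold changes of −0.15 and 0.57 in the first and second comparison, and Myc of −0.02 and 0.52, none of them called by edgeR; DESeq2 called Ccnd1 higher with OSMI added. Cdkn1a, which encodes the CDK inhibitor p21, measured 233, 256 and 288 CPM with vehicle, 307, 348 and 322 with rhWnt3a, and 238, 223 and 165 with OSMI added. All rhWnt3a libraries were above all others. Its log2 fold changes of 0.33 and −0.64 were not called by edgeR, while DESeq2 called it lower with OSMI added.

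Genes that report on the treatments were read in the same libraries. Axin2, a feedback target of Wnt signalling, measured 0.244, 0.891 and 0.565 CPM with vehicle, 21.6, 16.8 and 18.8 with rhWnt3a, and 12.3, 10.6 and 17.3 with OSMI added. It was high in all 6 libraries with Wnt3a in their titles, and OSMI replicate 3 lay within the rhWnt3a range. Its log2 fold changes were 5.06 with rhWnt3a and 4.55 with OSMI against vehicle (both called), and −0.51 with OSMI against rhWnt3a (not called). Ogt, the target of OSMI, stood at 459, 500.0 and 360 CPM with vehicle, 676, 514 and 619 with rhWnt3a, and 624, 667 and 762 with OSMI added. The OSMI libraries were all above the vehicle libraries and overlapped the rhWnt3a libraries, and Ogt was called higher in OSMI against vehicle at 0.64. Oga, which encodes the enzyme that removes the sugar and is listed as Mgea5, had 115, 130.4 and 169 CPM with vehicle, 178, 174 and 173 with rhWnt3a, and 261, 244 and 270.1 with OSMI added. The 3 groups did not overlap, and Mgea5 was called higher in OSMI against vehicle at 0.90.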

How the data were processed

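RNA of 9 ST2 libraries was measured by sequencing, and groups follow the sample titles. The authors deposited a table of whole-number counts per gene, made, per the submitters' processing notes, with CASAVA, fastp, HISAT2 2.0.5 and featureCounts 1.5.0-p3 on mm10. The authors also deposited FPKM values, used here only to compare levels between genes. Strandedness is not given in the sources used here. Columns of the authors' pairwise comparisons (group means, log2 fold changes, p-values and adjusted p-values, from DESeq2 per the paper) were not used. The tests ran in edgeR 4.0.16 (R 4.3.3) after filterByExpr with default settings (counts of 10, total of 15), TMM scaling and a two-sided quasi-likelihood test on all 9 libraries without covariates, with Benjamini-Hochberg adjustment over the 14004 tested genes. The common dispersion was 0.0452. Standard errors come from the fit, and floors of 3 counts cover counting error only.

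The 44 members and the other lists were chosen with earlier results of these data known. Named with values in every library were the 5 largest called changes per comparison and direction, the 3 highest and 3 lowest members per length, and members against the sign of the median. From other lists, the largest 2 called genes per comparison and Foxm1, Mybl2, Pcna, Ccnd1, Cdkn1a, Myc, Axin2, Ogt and Oga were named. Per-library values of Cdk1 and Ccnb1, and all further genes, were chosen after they were seen. Near-identical transcripts (97% over 100 bases) were sought with BLAST 2.17.0 in GENCODE M21. The fit was also run on simulated data, whose outcome is not reported here and is not relied on. Alternatives covered filters, scaling, DESeq2 1.42.0, thresholds, blocks, length and GC offsets, and libraries left out.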

Additional observations from a re-analysis of the deposited data

How the results depend on the processing

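The median log2 fold changes of the 44 members kept their sign and moved by less than the spread between replicates under all 23 alternatives. That spread was 0.365, the SD between replicates of the members' median log2 CPM. Medians ran from −1.28 to −1.06 for rhWnt3a against vehicle and from 1.26 to 1.63 for OSMI added to rhWnt3a. For OSMI against vehicle they ran from 0.10 to 0.45. The main value there, 0.24, is smaller than the spread, so this measure says little about it. Within the sides of the axis the median log2 difference of OSMI from vehicle was 0.60 and −0.46. The alternative that required at least 10 counts in every library held 38 of the members. Counts of called members moved more, and the cause was not tested. Calls over all genes, in either direction, are given beside each count. For rhWnt3a against vehicle (18 members, 1230 genes) they were 34 (2155) at an unadjusted p, 29 (2033) with the side of the within-group axis as a block, 37 (2557) without the library apart in each group, and 4 to 28 (716 to 1506) with 1 library left out. For OSMI added to rhWnt3a (22, 664) they were 38 (2271) at an unadjusted p, 35 (1481) with no count filter, 13 (345) with only the 6 libraries compared, 33 (4033) with the side as a block, 40 (1789) without the library apart in each group, and 7 to 35 (203 to 764) with 1 library left out. For OSMI against vehicle (1, 1986) they were 4 (3186) at an unadjusted p, 0 (1118) beyond a log2 fold change of 1, 2 (2204) with gene length offsets, 2 (2246) with length and GC offsets, 2 (4671) with the side as a block, 14 (3351) without the library apart in each group, and 0 to 7 (1218 to 2328) with 1 library left out. DESeq2 called 25 (1515), 32 (1241) and 1 (2362).

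With replicate number as a replicate block, 13 (809), 10 (233) and 0 (1297) members were called in the 3 comparisons; with the block and length offsets, or length and GC offsets, OSMI against vehicle gave 0 (1726 and 1832). The numbers do not pair the libraries: libraries of the same number, each taken relative to its group mean, correlated at −0.49 to 0.44. Length and GC offsets, alone or with the block, were chosen after seeing the data. No member named with a test changed sign under any alternative, and with OSMI added to rhWnt3a Bub1b was called under all 26 settings.

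Omitting the library farthest from its group narrows the spread by construction, so the larger counts without these libraries are partly a product of the choice. The side of the axis was found in these same libraries, so counts with the side as a block are likewise partly a product of the choice. Omitting the library apart in each group also leaves the OSMI libraries on the opposite side of the axis from the libraries left in both other groups. In both OSMI comparisons, counts without the library apart in each group therefore compare sides as well as treatments. The fits on all libraries share this limit in part, with 2 OSMI libraries on the side that held 1 library of each other group. Low counts limit precision: a member had a median of 54 counts in a library, and Spc24 fell to 1. A count of 0 allows up to 0.191 CPM.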
